A study of Mus musculus with 2931 samples.

Results

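The genes described here are the 45 Wnt pathway genes among the 18072 gene symbols measured in single endothelial cells (EC) of mouse lung. They were chosen by name: every Wnt ligand, Frizzled receptor, Sfrp and Dkk symbol of the table, with Lrp5, Lrp6, Axin1, Axin2, Ctnnb1, Lef1, Tcf7, Tcf7l1, Tcf7l2, Wif1, Apcdd1 and Notum. By role they are 16 ligands, 10 Frizzled receptors, 2 co-receptors, 9 secreted inhibitors, 1 membrane inhibitor, 3 intracellular proteins and 4 DNA-binding factors of the TCF/LEF family. All 45 symbols were found once in the GENCODE M21 annotation of the GRCm38 build.

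Wnt ligands are secreted lipid-bearing proteins that bind a Frizzled receptor together with Lrp5 or Lrp6. In the canonical branch this binding stops the Axin scaffold from sending beta-catenin, the product of Ctnnb1, to degradation, and beta-catenin then acts with TCF/LEF factors on target genes, Axin2 among them. Wif1 and the Sfrp proteins bind ligands outside the cell, Dkk proteins act mostly through the co-receptors, and Apcdd1 is a membrane protein that lowers the response. In blood vessels, Fzd4 is best known as the receptor of norrin in the retina, where Tspan12 is its helper protein.

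The 2931 cells were sorted from the distal lung of 10 mice, and each deposited sample is 1 cell. The mice form 5 groups with 1 female and 1 male each: the embryonic stage E18.5 and the postnatal days P1, P7 and P21, all in normal air, and a hyperoxia group at P7, for which the labels give no oxygen level. No strain, transgene or deletion is named for any group, and it is not given if each mouse name was 1 animal or a pool in the sources used here. The sort gate was CD31, an endothelial surface protein, for 2694 cells, a gate called mesench for 224 and CD45 for 13. Most of the mesench cells came from the P21 mice, in other runs than the CD31 cells of these mice. Comparisons with P21 over all gates therefore mix gate with age. The P7 male also had cells of the other gates, in another run. Levels in its Car4+ capillaries differed between all gates and the CD31 gate. The submitters gave each cell 1 of 10 subtype labels, which were used as they stand. Early and Late Car4- capillaries were joined as Car4- capillaries and Arterial EC I and II as arterial EC, because most mice lack enough cells of one of them. A class was used in a mouse with at least 8 of its cells.

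Cells carried 42095 to 2967985 reads, with a median of 621406, and the P7 male was the shallowest mouse with a median of 188610 reads a cell. Summed markers of endothelium stood between 1612 and 7054 counts per 1000000 reads (CPM) in every class and mouse, and the venous, arterial, lymphatic, Car4+ and proliferation markers were highest in the classes with those labels. The 8 markers of mesenchyme had summed class medians of 5.34 to 22.6 CPM, with Dcn at 0 to 0.811 CPM in all sums, but their sum reached 316 CPM in the proliferative EC of the P1 male, 302 in those of the P7 male and 240 in the arterial EC of the P7 male. Markers of mesothelium stayed between 0 and 10.2 CPM, those of immune cells between 0 and 72.7 CPM and those of epithelium between 0.129 and 240 CPM. The sequencing run is confounded with sex and age, and in the females with hyperoxia. Among CD31-gate cells the E18.5, P1 and P21 females shared a run, the E18.5, P7, P21 and hyperoxia males shared another, and no pair of P1 and P7 mice shared one, so among these cells a P7 to P1 difference and a difference of runs cannot be told apart. The P1 male shared its run with a few P7 male cells of the other gates, where gate and age go together. The P7 female in air and the hyperoxia female shared no run, so in females hyperoxia and run cannot be told apart.

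The secreted inhibitors Wif1, Dkk2 and Sfrp2 had most of their reads in a single subtype label, and their upstream sequences are shown first. Each is the RefSeq promoter window of the GRCm38.p6 build, from 250 bases before the annotated start, ended before the first base of the GENCODE gene, plus strand, printed 5′ to 3′. Wif1 lies at chr10:121033960-121100650, Dkk2 at chr3:132085292-132180304 and Sfrp2 at chr3:83766321-83774316.
Wif1 upstream, chr10:121033754-121033959: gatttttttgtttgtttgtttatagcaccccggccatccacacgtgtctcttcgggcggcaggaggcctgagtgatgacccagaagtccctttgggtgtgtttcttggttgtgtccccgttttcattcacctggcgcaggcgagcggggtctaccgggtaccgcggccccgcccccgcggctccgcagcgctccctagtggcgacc
Dkk2 upstream, chr3:132085042-132085291: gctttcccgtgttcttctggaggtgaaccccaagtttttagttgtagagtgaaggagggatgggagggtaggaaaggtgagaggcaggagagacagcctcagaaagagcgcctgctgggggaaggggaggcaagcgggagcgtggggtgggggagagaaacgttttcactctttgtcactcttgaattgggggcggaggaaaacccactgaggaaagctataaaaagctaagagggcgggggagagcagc
Sfrp2 upstream, chr3:83766071-83766320: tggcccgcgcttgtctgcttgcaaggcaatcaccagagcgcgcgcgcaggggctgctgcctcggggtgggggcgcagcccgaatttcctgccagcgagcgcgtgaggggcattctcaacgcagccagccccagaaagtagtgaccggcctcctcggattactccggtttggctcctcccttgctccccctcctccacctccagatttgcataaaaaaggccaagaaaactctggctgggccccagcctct
The windows were searched on both strands for CTTTGAA and CTTTGAT, short forms of the letters that TCF/LEF factors bind, and would carry a match in capitals. None of these windows held one. Of all 32851 windows of 250 bases in the table, 7.48% did, and of the 38 windows of 29 members 2 did. These were Wnt11, with ATCAAAG 51 bases before the start of the gene, and Wnt5b, with CTTTGAT 71 bases before a RefSeq start that lies inside the GENCODE gene. The Wnt5b window at the gene's own start held none. A match is only a run of letters, and its absence from a window says nothing of the factors.

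Few of the members carried most of the reads. Ctnnb1, Tcf7l2 and Fzd4 together held 73.4% of all member reads, and Ctnnb1 was read in 2238 cells, Fzd4 in 1882 and Tcf7l2 in 1638. In 17 members the mean of a class and group reached 20 CPM while 10% or more of the cells had a read, and these are described mouse by mouse. The other 28 are given by range. They are 15 ligands, 7 Frizzled receptors, 5 secreted inhibitors and Lef1.

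**Figure D1:**
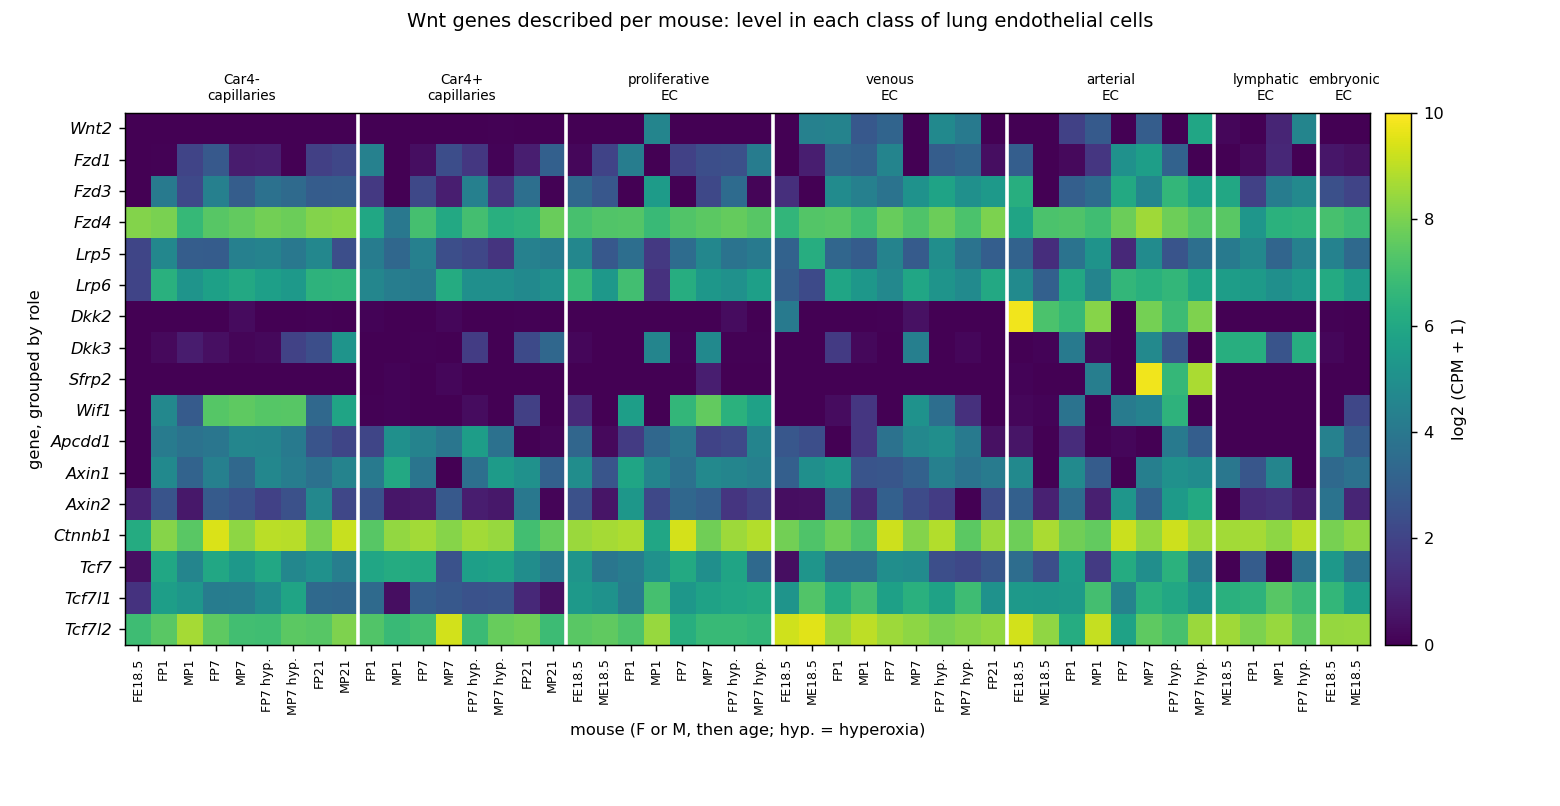
Level of the 17 described Wnt genes, grouped by role (rows), in each class and mouse with at least 8 cells (columns), as log2 of CPM plus 1 (colour, 0 to 10). Ctnnb1 and Tcf7l2 are bright in every class, and Fzd4 is dimmer in the Car4+ than in the Car4- capillaries of each mouse with both. Wif1 is at 162 to 183 CPM in the Car4- capillaries of P7 in air and hyperoxia, and Dkk2 and Sfrp2 have their highest levels in arterial EC.

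Ligands were rarely read. The 16 ligand genes were read in 12 to 158 of the 2931 cells each. The 15 ligands not described by mouse had highest group means of 0.0286 to 13 CPM. Wnt2, a ligand known for its role in early lung growth, was read in 52 cells. Its reads lay in venous EC (22 of 203 cells), lymphatic EC (11 of 82) and Arterial EC II (5 of 42), which held 43.5%, 26.0% and 23.4% of them. The shares were 10.8% (exact Clopper-Pearson 95% interval 6.92 to 16), 13.4% (6.89 to 22.7) and 11.9% (3.98 to 25.6). With each cell thinned to 50000 reads they were 8.46%, 9.76% and 9.52%. Only 8 of 1463 Car4- capillary cells had a Wnt2 read. In Arterial EC I no cell of 96 did, which allows a share of up to 3.12%. Intervals and limits of this kind cover counting error only.

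Wnt2 in venous EC was 0 and 19.8 CPM in the E18.5 female and male, 21.1 and 5.78 at P1, 8.26 and 0 at P7, and 25.9 and 15.8 under hyperoxia. The P21 female had 0. The hyperoxia mice lay above both P7 mice, and the other groups overlapped. Single cells weighed heavily here: at P7 all reads came from 1 cell of the female.

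Among the receptors, Fzd4 was the one read widely. Per kilobase of exon, which allows levels of different genes to be compared, its mean over the 9 mice with Car4- capillaries was 33.7 CPM, next to 71.5 for Ctnnb1, 35.4 for Wif1 and 21.8 for Tcf7l2. Fzd3 had 0.704 and Fzd1 0.442 CPM per kilobase. In Car4- capillaries Fzd4 was 284 CPM in the E18.5 female, 255 and 104 CPM in the P1 female and male, 167 and 193 at P7, 281 and 299 at P21, and 236 and 216 under hyperoxia. These values cover a range of under 3-fold, with the P1 male lowest and the male P21 mouse highest.

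In Car4+ capillaries, the cells marked by carbonic anhydrase 4, Fzd4 was 61.4 and 15 CPM at P1, 131 and 63.8 at P7, 87.8 and 210 at P21, and 129 and 77.8 under hyperoxia. The CD31-gate Car4+ cells of the males, in their shared run, had 69.9 CPM at P7, 75.2 at P21 and 77.8 under hyperoxia. Each of the 8 mice had less Fzd4 in its Car4+ than in its Car4- capillaries, and the median log2 difference within a mouse was -1.52 (SD 0.79, range -2.71 to -0.35). The subtype labels were made from the expression of these cells, so subtype differences are descriptions and carry no test. Over all 12074 genes compared, 6.89% were lower in every mouse with a median of at least 1 on the log2 scale, and 1.78% were higher.

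The other Frizzled genes had low sums. Fzd3 was 0 to 97 CPM in arterial EC (mean 41.3), 2.79 to 63.3 CPM in lymphatic EC (27.3) and 0 to 54.5 CPM in venous EC (24.6), and its mean was at most 9.02 CPM in the other classes. Fzd1 had its highest sums, 32.2 and 48.1 CPM, in the arterial EC of the P7 female and male. The remaining 7 Frizzled genes had highest group means of 1.96 to 37.6 CPM, and the 37.6 is Fzd10, read in 79 cells in all. The 1.96 is Fzd6, which was read in 406 cells, more than Fzd3 with 340.

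The co-receptors were read in all classes, Lrp6 in 1293 cells and Lrp5 in 810. In Car4- capillaries Lrp6 was 80.1 and 35.4 CPM at P1, 50.9 and 64.5 at P7, 88.2 and 92.2 at P21, and 49.3 and 39.8 under hyperoxia. The P21 mice were the highest of the postnatal groups. Lrp5 in the same cells was 23.5 and 6.76 CPM at P1, 6.60 and 19.4 at P7, 23.5 and 4.35 at P21, and 21 and 15.2 under hyperoxia. The mice of each normal air age overlapped with those of the others.

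Of the secreted inhibitors, Wif1 was read mostly in Car4- capillaries and proliferative EC. It was read in 237 of 841 Early Car4- cells (28.2%, 95% interval 25.2 to 31.4), 48 of 622 Late Car4- cells (7.72%, 5.74 to 10.1) and 65 of 390 proliferative EC (16.7%, 13.1 to 20.7). Thinned, the shares were 25.4%, 5.31% and 12.8%. In Car4+ capillaries only 6 of 332 cells had a read (1.81%), in lymphatic EC 1 of 82 and in embryonic EC 5 of 313. Arterial and venous EC lay between, counted in mice with at least 8 cells of the class. There 14 of 134 arterial EC (10.4%, sums of 0 to 86.8 CPM) and 12 of 199 venous EC (6.03%, 0 to 33.7 CPM) had a read. Early Car4- cells held 71.0% of all Wif1 reads.

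By mouse, Wif1 in Car4- capillaries was 24.6 and 6.27 CPM in the P1 female and male, 164 and 183 at P7, 9.28 and 56.5 at P21, and 162 and 168 under hyperoxia. The 13 Car4- cells of the E18.5 female had no read. All P7 mice, in air and in hyperoxia, lay above all P1 and P21 mice. In the P21 male 48.8% of the reads came from a single cell. P21 Car4- cells carry almost only the Late label and P1 and P7 cells mostly the Early label, and Wif1 was read more often in Early than in Late cells. In the P7 female, the mouse with the most Late cells outside P21, 55 of 162 Early cells and 4 of 44 Late cells had a read. The part of the label mix in the differences between ages was not tested.

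The fitted log2 change of Wif1 from P1 to P7 was 3.47 (SE 0.767, mean 15.5 ± 13 to 174 ± 13.5 CPM, SD, n = 2), with an adjusted p of 0.36 in edgeR's quasi-likelihood test. From P7 to P21 it was -2.21 (SE 0.728, 32.9 ± 33.4 CPM at P21), with an adjusted p of 0.318. Neither passed the threshold of 0.05. Under DESeq2 the adjusted p was 0.000137 and 0.027, and under limma on mean CPM over cells 0.00554 and 0.00165, so the call turned on the method. DESeq2 called 2.71% and 4.76% of all genes in these comparisons, and limma 0.0327% and 1.01%. The change to P21 was -4.2 without the P21 male. Within the run that the males share, the CD31-gate Car4- capillaries had 234 CPM at P7, 34.8 at P21 and 168 under hyperoxia, and within the run of the females 25.2 at P1 and 11 at P21.

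Proliferative EC, which are labelled for cell division genes, had Wif1 at 1.29 and 0 CPM at E18.5, 47.7 and 0 at P1, 96.7 and 191 at P7, and 82.7 and 51.7 under hyperoxia. Both P7 mice lay above both P1 mice and both hyperoxia mice. The fitted log2 change was 2.60 (SE 1.96, adjusted p = 0.632) from P1 to P7 and -1.10 (SE 1.87, adjusted p = 1) under hyperoxia. Of the P7 male's reads 51.8% came from 1 cell.

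Within a mouse, Wif1 was lower in Car4+ than in Car4- capillaries in 8 of 8 mice, with a median log2 difference of -6.43 (SD 2.33). It was 0 in all 4 lymphatic sums.

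**Figure D2:**
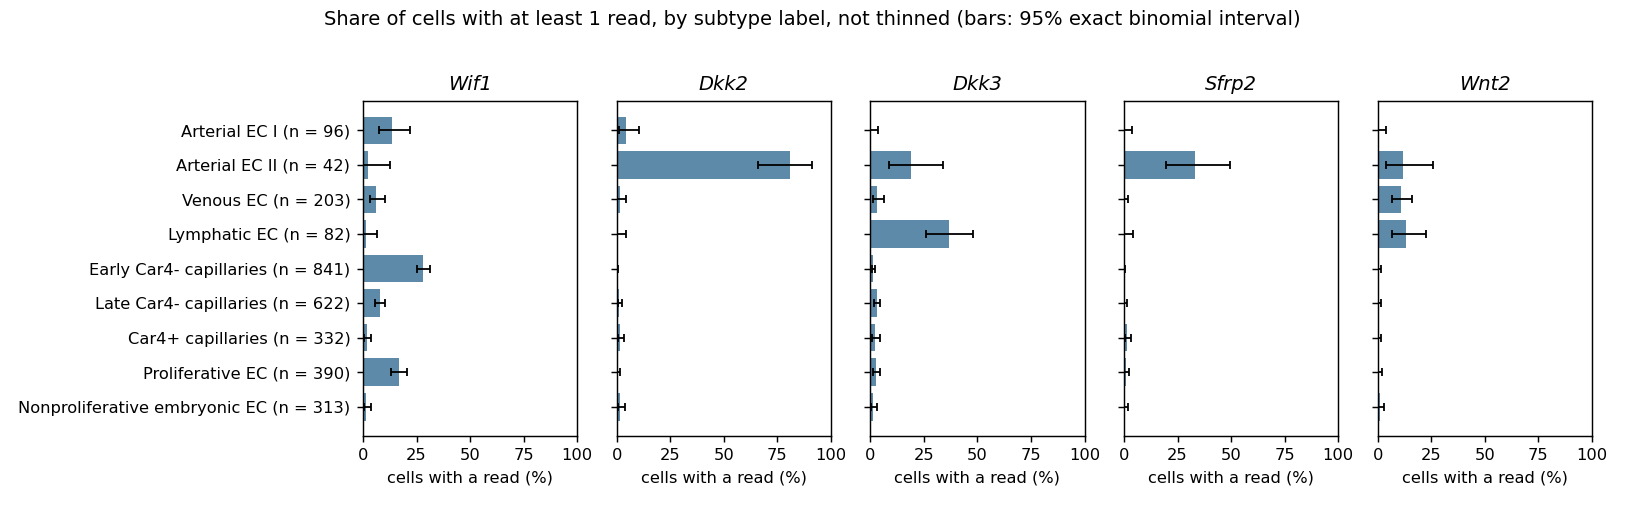
Share of cells with at least 1 read (percent, horizontal axis, not thinned, with 95% exact intervals) of Wif1, Dkk2, Dkk3, Sfrp2 and Wnt2 in the submitters' subtype labels, without the 10 cells labelled Proliferative venous EC. Wif1 is highest in Early Car4- capillaries (28.2%), Dkk2 (81.0%) and Sfrp2 (33.3%) in Arterial EC II, and Dkk3 in lymphatic EC (36.6%).

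Dkk2 separated the arterial labels. It was read in 34 of 42 Arterial EC II cells (81.0%, 65.9 to 91.4) from 9 of 10 mice, and in 4 of 96 Arterial EC I cells (4.17%, 1.15 to 10.3). Thinned, the shares were 78.6% and 4.30%. Arterial EC II held 93.4% of all Dkk2 reads. Over its Arterial EC II cells, the E18.5 female had 1873 CPM (4 cells), the E18.5 male 381 (6 cells), the P1 mice 453 and 350 (4 and 9 cells), the P7 male 301 (6 cells) and the hyperoxia mice 447 and 530 (5 and 4 cells). The single such cell of the P7 female had no read, and the P21 mice had 26.3 and 86.2 CPM over 2 cells and 1 cell. With so few cells a mouse, no difference between ages was tested at this label.

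Sfrp2 was read in 14 of 42 Arterial EC II cells (33.3%, 19.6 to 49.6; thinned 23.8%), which held 99.8% of its reads. Over these cells it was 24.7 CPM in the P1 male, 1103 in the P7 male, 147 in the P21 male, and 385 and 837 in the hyperoxia female and male. It was 0.151 in the E18.5 female and 0 in the other 4 mice. The value of the P7 male came from 1 cell, which also held 2152 CPM of Sfrp1 and 290 CPM of the collagen gene Col1a2, beside 1023 CPM of Pecam1. The hyperoxia male cell with the most Sfrp2 had no Col1a2 read, and that of the hyperoxia female had 492 CPM.

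Dkk3, a less typical member of the Dkk family, was read in 30 of 82 lymphatic EC (36.6%, 26.2 to 47.9; thinned 31.7%). It was 76.7 CPM in the E18.5 male, 75.6 and 5.04 in the P1 mice and 74.0 in the hyperoxia female. In the 3 mice with both classes it was higher in lymphatic EC than in Car4- capillaries in all 3, with a median log2 difference of 6.02 (range 1.85 to 6.02). Of all genes, 12.8% were higher and 12% lower in the same way. Late Car4- cells held 46.8% of all Dkk3 reads though only 19 of 622 had one. Of the reads in the Car4- capillaries of the P21 male 92.0% came from 1 cell, which had 1272 CPM of Cdh5 and no Pecam1 read. The other 5 secreted inhibitors were read in 5 to 52 cells each, with highest group means of 0.0358 to 440 CPM. The 440 is Sfrp1, read in 52 cells, among them the P7 male cell named above.

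The membrane inhibitor Apcdd1 was low in capillaries at P21. In Car4- capillaries it was 16.9 and 12.6 CPM at P1, 14.3 and 23.1 at P7, 22.2 and 16.4 under hyperoxia, and 5.02 and 3.21 at P21. In Car4+ capillaries it was 3.28 and 31.8 CPM at P1, 21.2 and 14.2 at P7, 46.2 and 12.3 under hyperoxia, and 0 and 0.113 at P21. Both P21 mice were the lowest of the postnatal mice in either class. The CD31-gate Car4+ cells of the males, in their shared run, had 37.0 CPM at P7, 12.3 under hyperoxia and 0.263 at P21. Neither difference from P7 passed edgeR's threshold, while DESeq2 called Apcdd1 in both, where it called 4.76% of all genes in Car4- and 2.1% in Car4+ capillaries. Apcdd1 was not read in any of the 42 Arterial EC II cells, which allows a share of up to 7.14%, nor in any of the 4 lymphatic sums.

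**Figure D3:**
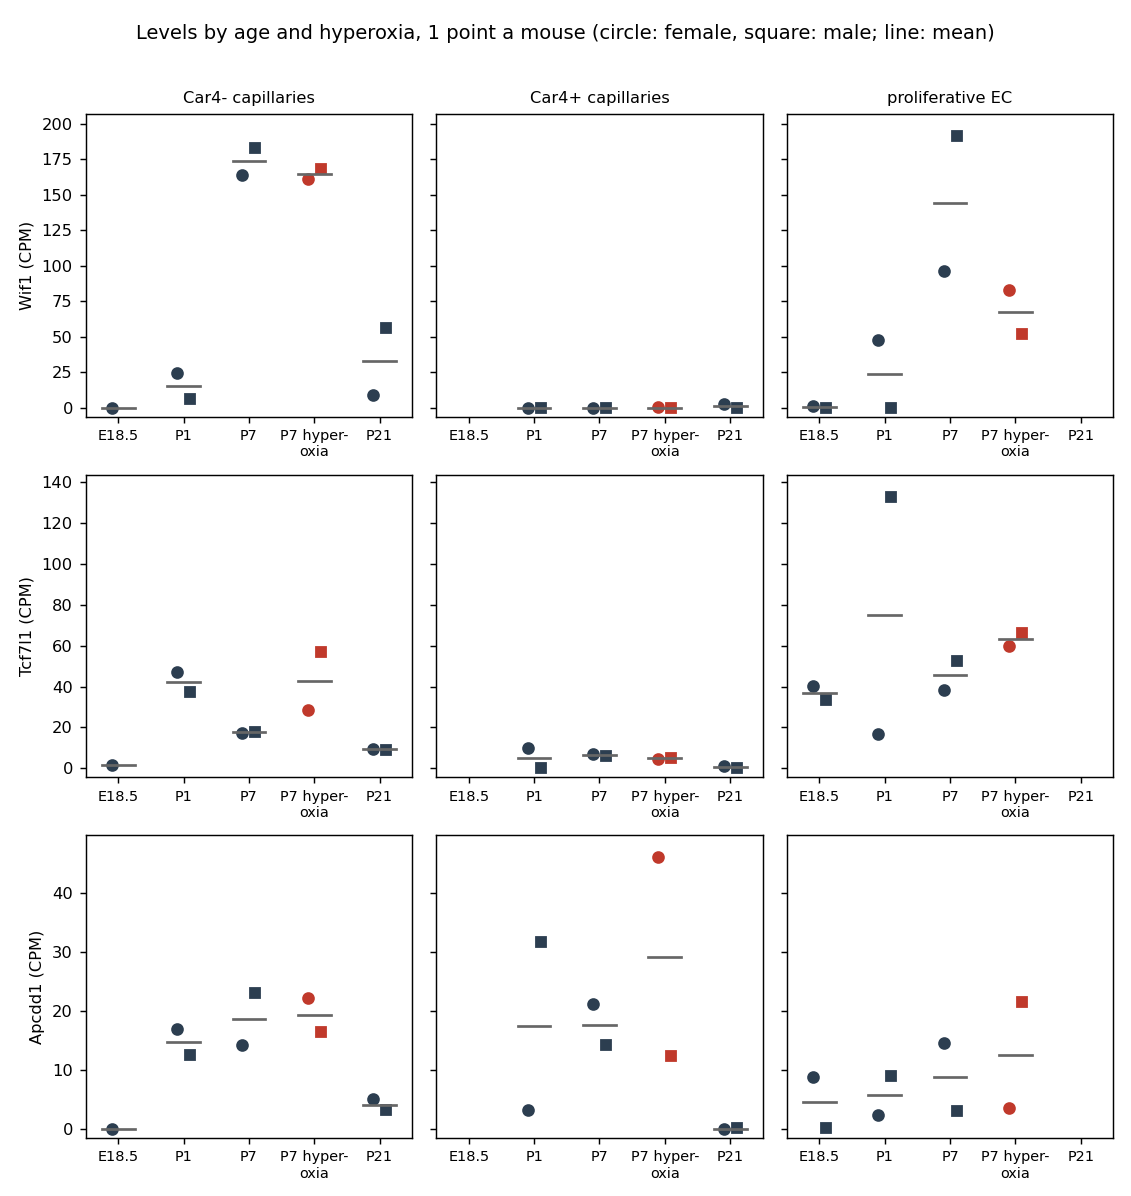
Level (CPM, vertical axis) of Wif1, Tcf7l1 and Apcdd1 in Car4- capillaries, Car4+ capillaries and proliferative EC by age and hyperoxia (horizontal axis). Each point is a mouse, circles are females, squares are males, red is hyperoxia and lines are means, and the P7 mice stand apart for Wif1 in Car4- capillaries at 162 to 183 CPM.

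Among the intracellular genes, Ctnnb1 had the highest levels. Ctnnb1 in Car4- capillaries was 69.8 CPM in the E18.5 female, 291 and 172 at P1, 686 and 317 at P7, 252 and 574 at P21, and 493 and 483 under hyperoxia. The P7 mice lay above the P1 mice by a fitted log2 change of 1.05 (SE 0.489, adjusted p = 0.442). Ctnnb1 was also higher in both P7 than in both P1 mice of venous EC (log2 change 1.23, SE 0.623) and arterial EC (1.18, SE 0.600). In Car4+ capillaries it was lower at P21 than at P7 (-1.09, SE 0.561, adjusted p = 0.858). None of these passed the test. The CD31-gate Car4+ cells of the males, in their shared run, had 276 CPM of Ctnnb1 at P21 and 290 at P7. Axin1 was read in 346 cells, with 0 to 64.7 CPM over all classes and mice.

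Axin2, widely used as a readout of canonical signalling, was low. Its sums in Car4- capillaries were 0.944 CPM in the E18.5 female, 5.13 and 0.575 at P1, 6.29 and 4.68 at P7, 24.3 and 3.39 at P21, and 2.84 and 4.61 under hyperoxia. The P21 female stood above the others. In arterial EC it was 7.30 and 0.902 CPM at E18.5, 10.9 and 0.854 at P1, 36.7 and 7.95 at P7, and 42.2 and 66.4 under hyperoxia. The hyperoxia mice were the highest, by a fitted log2 change of 1.29 (SE 1.85, adjusted p = 1), and all reads of the P7 female came from 1 cell.

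Within a mouse, Axin2 was higher in arterial EC than in Car4- capillaries in 7 of 7 mice, with a median log2 difference of 2.09 (SD 1.34, range 0.24 to 3.59), where 1.49% of all genes were higher in this way. The result did not hold with the mean CPM over cells in place of summed reads. By label, 20 of 96 Arterial EC I cells had a read (20.8%, 13.2 to 30.3; thinned 17.2%) and 12 of 42 Arterial EC II cells (28.6%, 15.7 to 44.6; thinned 9.52%). These cells held 2172 and 118 Axin2 reads. In lymphatic EC 11 of 82 cells had a read (13.4%, thinned 2.44%), and in the capillary, venous, embryonic and proliferative EC labels 10.5% to 18.7% (thinned 4.82% to 7.18%).

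The TCF/LEF factors divided the classes. Tcf7l2 was read in 184 of 203 venous EC (90.6%, thinned 86.6%), 71 of 82 lymphatic EC (86.6%, thinned 75.6%) and 37 of 42 Arterial EC II cells (88.1%, thinned 81.0%). It was read in 483 of 841 Early Car4- cells (57.4%, thinned 50.7%) and 201 of 622 Late Car4- cells (32.3%, thinned 27.2%). In venous EC its level was 627 and 755 CPM at E18.5, 358 and 513 at P1, 366 and 312 at P7, 253 and 287 under hyperoxia, and 329 in the P21 female. Both E18.5 mice were the highest and both hyperoxia mice the lowest. In Car4- capillaries it was 171 and 396 CPM at P1, 185 and 124 at P7, 166 and 265 at P21, and 121 and 176 under hyperoxia. Venous EC had more than Car4- capillaries in 8 of 8 mice, by a median of 1.02 (SD 0.59).

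Tcf7l1 also differed between classes. It was read in 145 of 203 venous EC (71.4%, thinned 61.2%), 60 of 82 lymphatic EC (73.2%, thinned 59.8%) and 64 of 332 Car4+ capillaries (19.3%, thinned 6.02%). Venous EC exceeded Car4- capillaries in 8 of 8 mice (median log2 difference 1.58, SD 0.97), lymphatic EC exceeded them in 3 of 3 (1.93), and Car4+ capillaries were lower in 8 of 8 (-2.30, SD 1.16). Over all genes, 2.43% were higher and 2.26% lower in every mouse in venous EC.

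Over time, Tcf7l1 in Car4- capillaries was 47.1 and 37.5 CPM at P1, 17.4 and 17.8 at P7, 9.70 and 9.07 at P21, and 28.4 and 56.9 under hyperoxia. The ages did not overlap, and the hyperoxia mice were both above the P7 mice in air. The fitted log2 change was -1.36 (SE 0.566, adjusted p = 0.412) from P1 to P7 and 1.26 (SE 0.564, adjusted p = 0.887) under hyperoxia. In the same run, the CD31-gate Car4- cells of the males had 56.9 CPM under hyperoxia and 22.7 at P7 in air. In Car4+ capillaries, hyperoxia (4.77 and 5.04 CPM) did not exceed P7 in air (6.99 and 5.82 CPM). The CD31-gate Car4+ cells of the males, in their shared run, had 5.04 CPM under hyperoxia and 15.1 at P7 in air. Whether the hyperoxia effect differs between these classes was not tested.

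The summed lymphatic markers (Prox1, Pdpn, Flt4 and Lyve1) of the Car4- capillaries also differed between these groups, at 2262 and 2949 CPM at P1, 911 in both P7 mice, 1043 and 935 at P21, and 4251 and 3924 under hyperoxia. Tcf7l1 was highest in lymphatic EC, with a mean of 112 CPM. Most of the sum was Lyve1, at 732 to 4023 CPM in these cells. Prox1, the factor that defines lymphatic cells, was 0 to 8.02 CPM in them beside 191 to 735 CPM in lymphatic EC, and 0.021 and 0.0411 CPM under hyperoxia. Pdpn was at most 0.232 CPM. In Car4+ capillaries the sum was 568 and 1223 CPM at P7 and 2657 and 2269 under hyperoxia. The part of these markers in the Tcf7l1 values was not tested.

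Tcf7 was low in lymphatic EC. It was read in 267 of 841 Early Car4- cells (31.7%, thinned 23.3%), 68 of 622 Late Car4- cells (10.9%, thinned 8.04%), 42 of 203 venous EC (20.7%, thinned 14.4%) and 103 of 332 Car4+ cells (31.0%, thinned 23.2%), and in 6 of 82 lymphatic EC (7.32%, thinned 3.66%). In venous EC it was lower than in Car4- capillaries in 8 of 8 mice, by a median of -1.64 (SD 1.21, the smallest difference -0.02), or in 7 of 8 with the mean CPM over cells, and in lymphatic EC in 3 of 3, by -3.06. In Car4- capillaries it was 61.5 and 22.7 CPM at P1, 62.0 and 39.1 at P7, 32.0 and 18.4 at P21, and 62.7 and 24.1 under hyperoxia, and the groups overlapped except that both P21 mice lay below both P7 mice. Lef1, the fourth factor, was read in 74 cells and had a highest group mean of 3.27 CPM.

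**Figure D4:**
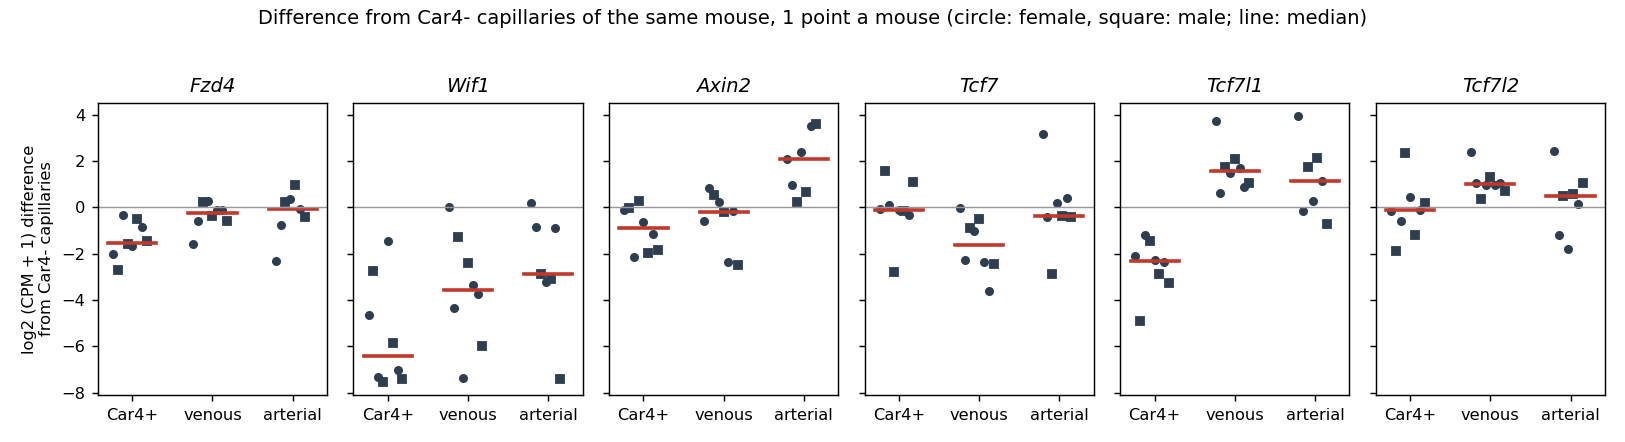
Difference of Car4+ capillaries, venous EC and arterial EC from the Car4- capillaries of the same mouse (log2 of CPM plus 1, vertical axis) for Fzd4, Wif1, Axin2, Tcf7, Tcf7l1 and Tcf7l2, with 1 point a mouse (circle female, square male), a red line at the median and a grey line at 0. Fzd4, Wif1 and Tcf7l1 lie below 0 in every mouse for Car4+ against Car4- capillaries, and Tcf7l1 and Tcf7l2 lie above 0 in every mouse for venous EC against Car4- capillaries.

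The other class pairs added little. Lymphatic EC against Car4- capillaries (3 mice) also had Fzd9 and Fzd10 higher, at means of 2.10 and 3.40 CPM and not with a pseudocount of 5 CPM, and Apcdd1, Fzd4 and Wif1 lower. No member was the same way in every mouse with a median of at least 1 for venous against arterial EC (8 mice, 28 members compared), where 1.66% of all genes were higher and 1.39% lower, or for proliferative EC against Car4- capillaries (7 mice, 22 members), where 3.97% were higher and 0.671% lower. Proliferative against embryonic EC (2 mice) had Wnt2b higher and Apcdd1 and Fzd8 lower, where 9.45% of all genes were higher and 9.69% lower.

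Of 18 to 27 members tested in each of 21 comparisons over age, hyperoxia and birth, edgeR called 0 at an adjusted p under 0.05. Of the 494 single tests of a member, 37 had an unadjusted p under 0.05 (7.49%, beside 6.82% of the 272259 tests of all genes), and the lowest adjusted p was 0.116, for Wif1 over P1, P7 and P21 in Car4- capillaries. Few genes of any kind were called. With 2 mice a group, a member that was not called is not shown to be the same between groups. In Car4- capillaries the share of all genes called was 0% for P7 against P1, 0.266% for P21 against P7, 0.0136% for hyperoxia and 0.348% for any difference over P1, P7 and P21. In Car4+ capillaries the same shares were 0%, 0.00814%, 0% and 0.0163%. In proliferative EC they were 0% for each pair and 0.0305% over the ages, in venous EC 0.0162% for P1 against E18.5, 0% for both others and 0.00811% over the ages, and in arterial EC 0.0167%, 0%, 0% and 0.0167%. DESeq2 called 1 to 3 members in 11 of the 21 comparisons, where it called 76 to 869 of all genes over the 21.

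Members whose mice did not overlap between groups, where the log2 change was 1 or more in size and the higher mean 20 CPM or more, are given with the share of all genes that met the same terms. Members counted or named below as higher or lower, with a share of all genes in parentheses, are those that met these terms. The comparisons of P7 with P1, of P21 with P7 and of hyperoxia with air share the P7 mice in air. In Car4- capillaries 2 were higher and 1 lower at P7 than at P1 (5.07% and 4.47% of all genes), 0 higher and 1 lower at P21 than at P7 (4.46% and 3.44%), and 1 higher and 0 lower under hyperoxia (1.97% and 1.9%), all with values above. The median log2 change of the members was 0.25 beside -0.04 for all genes from P1 to P7, 0.48 beside 0.06 to P21, and -0.03 beside -0.01 under hyperoxia. In Car4+ capillaries 1 was higher and 1 lower at P7 than at P1 (7.17% and 8.63%) and 1 lower at P21 (6.04%). The first were Fzd4 (log2 change 1.52, SE 0.795) and Axin1 (-2.66, SE 1.95, adjusted p = 0.785). No Car4+ member met these terms under hyperoxia in either direction (7.51% higher and 5.62% lower).

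In proliferative EC no member met these terms at P1 against E18.5 (4.82% of all genes higher and 7.37% lower). The median log2 change of the members there was 1.23 beside -0.16 for all genes. The members are not replicates, so this median is a description without a test. In the same class 1 member was higher and 1 lower at P7 than at P1 (9.29% and 6.65%) and 1 lower under hyperoxia (4.07%). The lower one at P7 was Tcf7l2, at 149 and 352 CPM at P1 (female, male) beside 75.5 and 105 at P7 (log2 change -1.68, SE 0.544, adjusted p = 0.495). The P1 male had 9 proliferative EC and the high mesenchyme sum given above. Its part in the P1 values of this class, against E18.5 or P7, was not tested. Leaving out the P1 female made edgeR call 5 members at P7 against P1 (Ctnnb1, Lrp6, Tcf7l2, Wif1 and Wnt2), with 1207 of all genes called (8.38%). The comparison then rests on the P1 male.

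In venous EC 2 members were higher and 0 lower at P1 than at E18.5 (9.7% and 6.53%), the higher ones being Fzd3 at 27.1 and 19.6 CPM beside 1.56 and 0 (log2 change 4.64, SE 1.89, adjusted p = 0.551), and Lrp6 at 57.4 and 38.0 CPM beside 6.73 and 3.79 (2.99, SE 1.23, adjusted p = 0.555). Without the E18.5 female edgeR called Fzd3, with 4.92% of all genes called. At P7 against P1, Tcf7 and Ctnnb1 were higher (7.74%) and 0 lower (6.9%). Under hyperoxia Tcf7 was 4.26 and 3.55 CPM beside 30.0 and 27.4 in air (-2.88, SE 1.93, adjusted p = 1), the 1 lower member (6.06%), and Wnt2 was the 1 higher (5.44%).

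In arterial EC 2 members were higher and 0 lower at P1 than at E18.5 (8.92% and 6.28%). The higher ones were Lrp5 (log2 change 2.24, SE 2.33) and Tcf7l1 (1.01, SE 1.05, and -0.12 without the P1 male). At P7 against P1, 5 were higher and 0 lower (8.75% and 9.21%). The 5 were Fzd4 (215 and 381 CPM beside 150 and 121), Lrp6 (97.8 and 79.5 beside 65.2 and 21.8), Fzd3 (66.2 and 23.1 beside 7.13 and 10.3), Fzd1 (32.2 and 48.1 beside 0.198 and 2.03) and Ctnnb1 (591 and 329 beside 225 and 194). Their adjusted p was 0.997 or 1. The members' median log2 change was 1.09 beside -0.04 for all genes, which is a description without a test. Under hyperoxia Axin1 and Axin2 were higher (7.08%) and Fzd1 lower (6.55%). The P7 mice had 17 and 10 arterial cells. The arterial labels were mixed differently in each mouse: Arterial EC I and II had 15 and 4 cells in the P1 female, 10 and 9 in the P1 male, 16 and 1 in the P7 female and 4 and 6 in the P7 male. The part of this mix in the arterial values was not tested. The mesenchyme sum was 240 CPM in the P7 male and 5.53 in the P7 female, and its part in these values was not tested.

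Across birth, embryonic EC of E18.5 were set against Car4- capillaries of P1, which differ in label as well as in age. No member of 26 was called, where 0.494% of all genes were, and none stood apart without overlap (3.36% of all genes higher and 3.35% lower in the embryonic cells).

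Of 59 further genes of the pathway, 44 to 49 were tested in each comparison. Nkd1, a target that feeds back on Dishevelled, was the single call. It was 38.9 and 43.9 CPM in embryonic EC and 265 and 206 CPM in the Car4- capillaries of P1, a log2 difference of -2.58 (SE 0.403, adjusted p = 0.00906 in edgeR), so it was lower in the embryonic cells. Within the run of the females the CD31-gate values were 38.9 and 269 CPM. The call was lost without either E18.5 mouse (adjusted p = 0.105 without the female and 0.0709 without the male), with log2 differences of -2.41 and -2.71. In Car4- capillaries of later ages Nkd1 was 247 and 384 CPM at P7, 253 and 136 at P21 and 372 and 366 under hyperoxia, and in Car4+ capillaries it was 369 to 683 CPM in all 8 mice. Nkd1 in proliferative EC was 52.5 and 44.5 CPM at E18.5 and 167 and 125 at P1 (log2 change 1.66, SE 0.419, adjusted p = 0.375).

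Tspan12, the partner of Fzd4, had a mean of 326 CPM at P7 and 65.6 CPM at P1 in Car4- capillaries (log2 change 2.27, SE 0.505, adjusted p = 0.36), and its mice did not overlap. By the terms used for the members, 2 of the 49 further genes tested there were higher and 3 lower at P7, beside 5.07% and 4.47% of all genes. Between P7 and P21 in the same cells 1 was higher and 5 lower by these terms (4.46% and 3.44% of all genes). Of the 5, Ccnd1 (457 to 146 CPM), Myc (26.0 to 3.33 CPM) and Ptk7 (26.0 to 2.27 CPM) had lower means at P21, with adjusted p of 0.22, 0.216 and 0.176. None of these 4 passed the test. In the 16 comparisons of groups, the median log2 change of those tested lay between -0.32 and 0.24.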

How the data were processed

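Single lung cells were sorted into plates and made into Tn5-cut libraries, per the labels' protocols. The authors deposited whole read counts per gene and cell, not normalized. STAR 2.5.2b, HTSeq 0.10 and the build GRCh38, a human one, are listed in the submitters' processing notes, and the annotation and strand setting are not given in the sources used here. No molecular identifiers are named, so reads are not independent molecules.

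The counts were summed per mouse and class (at least 8 cells a mouse) and tested with edgeR 4.0.16 (TMM, filterByExpr, quasi-likelihood F test), with all groups of a class in 1 model. For the birth comparison, embryonic EC of E18.5 entered a model with the Car4- capillaries of the postnatal groups. P-values were adjusted with the Benjamini-Hochberg method over all genes tested, and a gene was called under 0.05. The replicate is the mouse name, so p-values measure the spread between mouse names. Levels are CPM of the sums, and per kilobase values used GENCODE M21 exon lengths. Differences between classes within a mouse used log2(CPM + 1). For shares, cells were also thinned to 50000 reads, which left out 11 cells. The test was checked on simulated counts.

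The members and lists were chosen with earlier results of these data known. Genes were named if a class and group reached a mean of 20 CPM with reads in 10% of cells, if called, or, in a comparison, if the mice did not overlap at a log2 change of at least 1 and that mean. Single cells, the further pathway genes and the undescribed members with subtype differences are named beside these. The alternatives were DESeq2 1.42.0, RLE normalization, no filter, CD31-gate cells alone, limma 3.58.1 on mean CPM, thinned cells, sex as a block, a pseudocount of 5 CPM and leaving out each mouse. Python 3.11.15, numpy 2.4.6, pandas 2.3.3, scipy 1.17.1 and matplotlib 3.10.9 were used.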

Additional observations from a re-analysis of the deposited data

How the results depend on the processing

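The count of members called was 0 in all 21 comparisons under edgeR, and also under RLE normalization. No replicate number is shared beyond sex, and with sex as a replicate block it was 0 in all 21 as well. The share of all genes called in the same fit stands in parentheses below. With DESeq2 the count was 1 for P7 against P1 in Car4- capillaries (Wif1, 2.71%), 3 for P21 against P7 (Apcdd1, Dkk3 and Wif1, 4.76%) and 3 over P1, P7 and P21 (Dkk3, Tcf7l1 and Wif1, 5.93%). It was 1 for P21 against P7 (2.1%) and 1 over the ages (1.14%) in Car4+ capillaries (Apcdd1), and 2 for P7 against P1 in proliferative EC (4.68%). In venous EC it was 3 for P1 against E18.5 (4.37%), 1 for P7 against P1 (0.617%) and 1 for hyperoxia (0.746%). It was 2 for P1 against E18.5 in arterial EC (1.82%) and 1 for birth (Wnt5b, 3.82%). Without a filter on low counts it was 1 over the ages in Car4- capillaries (0.656%), 1 for P1 (0.655%), 1 for P7 (0.539%) and 2 for all ages (1.2%) in proliferative EC, and 2 each for P1 (0.263%), P7 (0.1%) and all ages (0.589%) in arterial EC (Sfrp1 and Sfrp2). With limma on mean CPM it was 1 (Wif1) in Car4- capillaries for P7 against P1 (0.0327%), P21 against P7 (1.01%) and over the ages (1.95%). It was 1 there for P21 against P7 with cells thinned (0.598%), and 1 over the ages both thinned (0.881%) and in CD31-gate cells alone (0.337%), again Wif1.

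Leaving out 1 mouse gave a called member in 21 of 170 fits, with 0.0514% to 8.38% of all genes called in those 21. The range was 0 to 1 over the ages in Car4- capillaries (Wif1, without the P1 female, the P21 female or the P21 male). In proliferative EC it was 0 to 2 for P1 against E18.5, 0 to 5 for P7 against P1 and 0 to 5 over the ages, in each case without a P1 mouse. In venous EC it was 0 to 1 for P1 against E18.5 and over the ages, without the E18.5 female. In arterial EC it was 0 to 1 for P1 against E18.5 (without the P7 female), 0 to 1 for P7 against P1 and 0 to 2 for hyperoxia (without the P7 male), and 0 to 2 over the ages. For birth it was 0 to 1 (Wif1, without the E18.5 male), and 0 in all fits of the other comparisons. A group left with 1 mouse is assumed to vary like the others. Of 422 alternative log2 changes of 28 results, 421 kept their direction. These results were picked because their mice did not overlap or because the gene was called. A kept direction was largely set by that choice and says little of how firm they are. Tcf7l1 in arterial EC from E18.5 to P1 ranged from -0.12 (without the P1 male) to 1.64 when single mice were left out. The count of members the same way in every mouse went from 1 to 0 for arterial EC against Car4- capillaries with mean CPM over cells (Axin2), and to 1 for proliferative against embryonic EC with a pseudocount of 5 CPM. For venous EC against Car4- capillaries it went from 3 to 2 with that pseudocount (Tcf7l2 was still higher in 8 of 8 mice, with a median of 0.999) and with mean CPM (Tcf7 was lower in 7 of 8). For lymphatic EC the higher members went from 4 to 2 with that pseudocount (without Fzd9 and Fzd10), and for Car4+ capillaries the lower members from 3 to 4 in CD31-gate cells (with Lrp6). The causes were not tested. Of 170 shares of cells with a read, 84 of the unthinned values lay within the exact interval of the thinned share.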

Other observations

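The highest levels of 2 rare ligands came from P21 male cells labelled Late Car4- capillaries, from the CD31 gate. The cell with the highest Wnt5b (2430 CPM) had no Pecam1 read and 9.13 CPM of Cdh5. The cell with the highest Wnt4 (2973 CPM) had 18.4 CPM of Pecam1 and 2159 CPM of Cdh5, and the next highest Wnt4 was 2749 CPM. For comparison, the cells with the highest Wif1 (3205 CPM, hyperoxia female) and Dkk2 (2581 CPM, E18.5 female) had 2362 and 1517 CPM of Pecam1, and the venous cell of the E18.5 male with the highest Wnt2 (748 CPM) had 196.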
